A study of Mus musculus with 6 samples.

Results

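Hemidesmosome and basal adhesion genes are described here as a set of 9 genes named by symbol: Itga6, Itgb4, Itga3 and Itgb1 for integrins, Col17a1, the plakin genes Dst and Plec, and the laminin chains Lama3 and Lamb3. All 9 were found among the 43629 gene identifiers of the count table, each under 1 Ensembl identifier, and all 9 passed the filter on low counts with 16829 genes in total. The set was put together by function, with earlier results of these data known. RNA was sequenced after poly(A) selection from cultured epidermal keratinocytes of 3 control and 3 Dnmt1Δ/Δep mice, female according to the labels and taken at P3. In Dnmt1Δ/Δep mice the floxed gene for the maintenance DNA methyltransferase is deleted by a Cre recombinase under the Keratin 5 promoter, which is active in basal keratinocytes. All lines were on a mixed C57BL/6J and 129SV background, and the labels call the other group control or wt, without giving its Dnmt1 alleles, whereas the study's controls include floxed mice without Cre. All 6 cultures grew for 5 days according to the labels (a legend of the study gives a shorter time), in keratinocyte growth medium with 8% chelated serum and 0.05 mM CaCl2, on dishes coated with collagen and fibronectin. Cells were thus attached to a supplied matrix at low calcium, away from dermis and basement membrane.

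Hemidesmosomes rivet the basal layer of the epidermis to the basement membrane. Integrin α6β4 and the transmembrane collagen XVII (also known as BP180) bind laminin outside the cell, and plectin and the epithelial form of dystonin (BPAG1e, also known as BP230) tie them to keratin filaments inside. Integrin α3β1 binds the same laminin but connects to actin in focal adhesions. Loss of these proteins in patients, or antibodies against them, causes skin blistering.

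Between 53433121 and 115526598 reads were counted on genes per library. Dnmt1 was measured at 394, 379 and 324 CPM (counts scaled to a common library size) in control and at 49.7, 54.3 and 50.7 CPM in Dnmt1Δ/Δep libraries. The log2 fold change was -2.83 ± 0.11 (SE, n = 3 against 3, adjusted p = 8.1e-05 by the quasi-likelihood test of edgeR with adjustment after Benjamini-Hochberg), so the targeted gene matches the labels. The basal keratin genes Krt5 and Krt14 were abundant in all libraries, with means of 8140 and 5370 RPKM in control (CPM divided by exon length in kilobases). Over all genes tested, 6.03% were called higher and 0.392% lower at the adjusted p with a 2-fold change, and 15.8% were higher and 7.79% lower at an unadjusted p under 0.05, the background for the marker lists that follow. Melanocyte markers were present in all libraries, with a summed level of 228 to 582 CPM in control and 699 to 927 CPM in Dnmt1Δ/Δep libraries. All 8 of them had positive log2 fold changes, but none passed the adjusted test with a 2-fold change, and 5 had an unadjusted p under 0.05. The most abundant per exon length were Pmel (log2 fold change 0.85, adjusted p = 0.25) and Tyrp1 (1.04, adjusted p = 0.11). Fibroblast markers summed to 18.9 to 37.8 against 19 to 75.3 CPM, with 0 of 10 called (3 at an unadjusted p under 0.05), and the highest levels per exon length were those of Col1a1 (1.29, adjusted p = 0.21) and Thy1 (0.78, adjusted p = 0.17). Leukocyte markers summed to 49.2 to 63.2 against 102 to 119 CPM, nearly all of it from Cd68 (0.97, adjusted p = 0.0041, without overlap), with Csf1r (2.67, adjusted p = 0.027) and Itgam (2.35, adjusted p = 0.047) of 4 tested called higher, and Ptprc, Lyz2 and Adgre1 were at or near 0. Endothelial markers summed to 6.83 to 17.9 against 16.6 to 23.8 CPM, with Pecam1 (1.89, adjusted p = 0.0075) and Cdh5 (4.11, adjusted p = 0.0097) of 5 tested called higher, and Kdr at -0.16 (adjusted p = 0.93). Markers of differentiated keratinocytes summed to 1300 to 2210 against 1100 to 1800 CPM, with 0 of 8 tested called. An unadjusted p under 0.05 was found for 2 positive changes (Ivl 1.61 and Lor 1.70) and 3 negative ones (Krt1 -2.30, Krt10 -1.58 and Krtdap -0.75), and Sbsn was at 0.22 (adjusted p = 0.59). The groups overlapped for Krt1 and Krt10. Control replicate 1 (12 and 4.56 RPKM) was near the Dnmt1Δ/Δep libraries (13.4 to 15 and 2.98 to 4.99 RPKM), and the other control libraries were higher. Krt1, Krt10, Ivl and Lor were named after their values were seen. In bulk RNA, fewer cells of a type and less RNA per cell cannot be told apart. Nothing in the labels says whether each library came from 1 animal, and the p-values measure the spread between these libraries only.

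In control libraries 8 of the 9 genes were abundant, with ranks from 75 to 1409 among 16713 genes with a known length. Col17a1 had the highest control level, 292 ± 24.4 RPKM (SD, n = 3), the first of these ranks. Itgb1 (183 ± 60.5), Itgb4 (131 ± 27.2), Itga3 (93.7 ± 45.3) and Itga6 (59.6 ± 29) followed. Plec (44.9 ± 12.1), Lama3 (44.2 ± 5.77) and Lamb3 (37.7 ± 6.15) came next, and Dst was lowest at 4.02 ± 0.553 RPKM, rank 8050. Of the 8 pairs of neighbours in this order, only Col17a1 with Itgb1 and Lamb3 with Dst had control libraries that did not overlap. In Dnmt1Δ/Δep libraries Itgb1 (232 ± 29.2) came before Col17a1 (199 ± 21.7), and both laminin chains came before Plec. With the longest transcript as length, Itga6 (125 RPKM) came before Itga3 (110) and Lamb3 (51.2) before Lama3 (45). Dst was last with each length, but its level depended on it, because its exons add up to 41155 bases over isoforms of muscle, nerve and skin. With the 8788 bases of the transcript nearest to its second RefSeq start (Dst-213), the same reads correspond to 18.8 ± 2.59 RPKM in control and 11.2 ± 1.12 in Dnmt1Δ/Δep libraries, a length that was chosen after the values were seen.

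**Figure D1:**
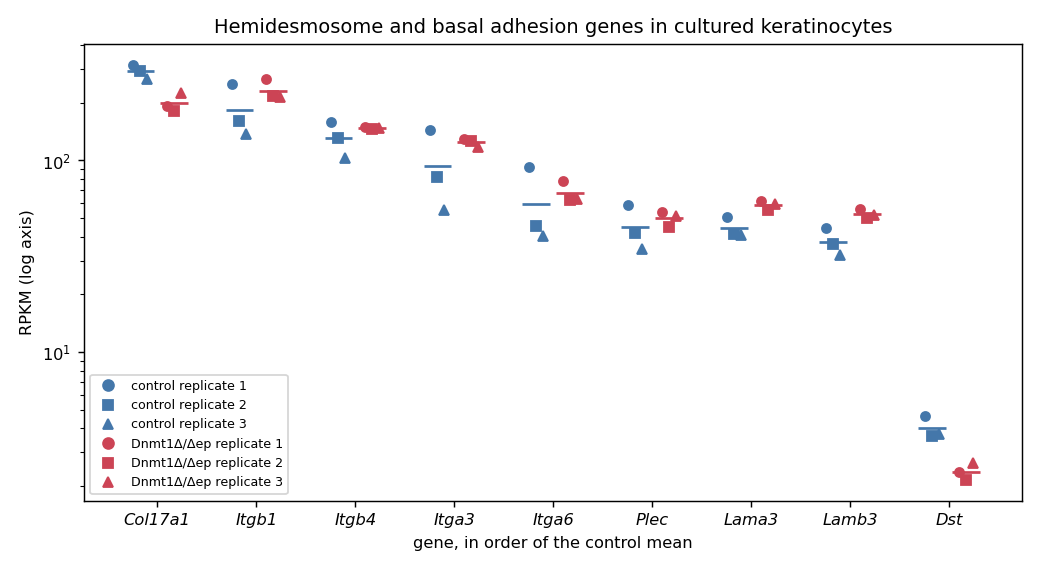
Level of each gene in each library, in RPKM on a log axis, with genes in order of the control mean; blue marks are the 3 control and red marks the 3 Dnmt1Δ/Δep libraries, marker shapes are replicate numbers and lines are group means. Red and blue marks do not overlap for Col17a1 and Dst (red lower) or for Lama3 and Lamb3 (red higher), and they overlap for the other 5 genes.

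None of the 9 genes passed an adjusted p of 0.05 together with a 2-fold change, with edgeR or with DESeq2, where 6.42% of all genes tested did (6.03% higher and 0.392% lower) and 1.24% of the 1772 genes of like abundance. At the adjusted p alone, Col17a1 and Dst were lower and none was higher with either tool, where 9.36% of all genes passed (7.71% higher and 1.66% lower). An unadjusted p under 0.05 was found for these and for Lama3 and Lamb3, which had positive changes, and for 23.6% of all genes (15.8% higher and 7.79% lower). The libraries of these 4 genes did not overlap, 2 being higher and 2 lower, as for 29.9% of all genes tested (18.2% higher and 11.7% lower). The median log2 fold change was 0.18 for the 9 genes and 0 for all genes tested, and the median size of change was 0.40 against 0.23. Genes with a mean of 132 to 1480 CPM, the range of these 9, had a median size of change of 0.14, and 5.14% of them passed the adjusted p alone.

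**Figure D2:**
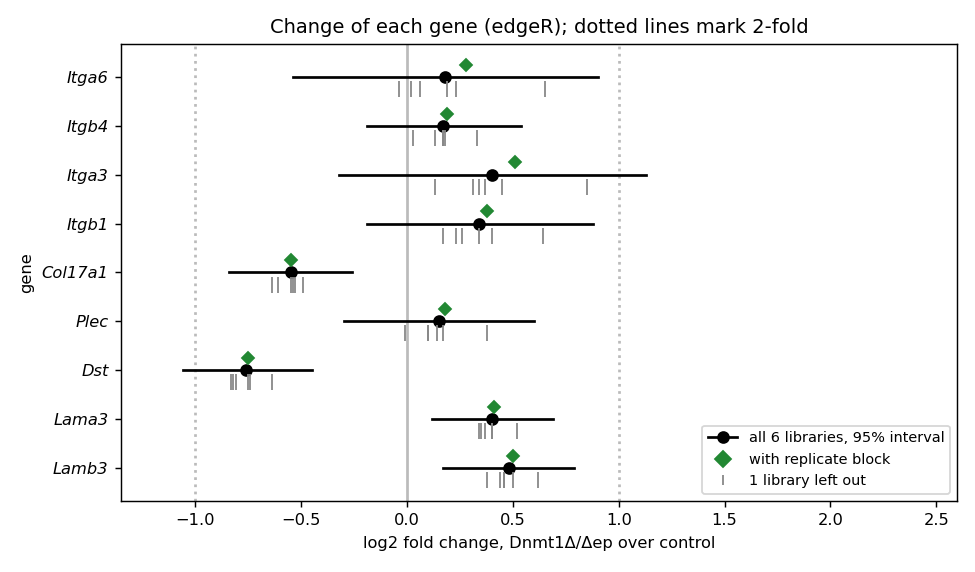
Change of each gene, as log2 fold change of Dnmt1Δ/Δep over control; black points and lines are edgeR's estimate and 95% interval from all 6 libraries, green diamonds the fit with a block for the replicate number, grey ticks the fits with 1 library left out, and dotted lines a 2-fold change. Only the intervals of Col17a1 and Dst (lower) and of Lama3 and Lamb3 (higher) leave out 0.

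Col17a1 (ENSMUSG00000025064, chr19:47646344-47692094, minus strand, GRCm38) encodes collagen XVII, the transmembrane collagen of hemidesmosomes. It was measured at 316, 294 and 267 RPKM in control and at 193, 182 and 224 RPKM in Dnmt1Δ/Δep libraries. All 3 control libraries were above all 3 Dnmt1Δ/Δep libraries. The level was 0.683 times that of control, a log2 fold change of -0.55 ± 0.12 (SE, 95% interval -0.84 to -0.26, adjusted p = 0.035 in edgeR's quasi-likelihood test). The difference stayed below 2-fold over the whole interval. It no longer passed the adjusted p without control replicate 2 (0.12), Dnmt1Δ/Δep replicate 1 (0.13) or Dnmt1Δ/Δep replicate 2 (0.09), although its log2 fold change then lay between -0.55 and -0.53.

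Dst (ENSMUSG00000026131, chr1:33908225-34308661, plus strand) encodes dystonin, whose epithelial form is the inner-plaque plakin of hemidesmosomes. Its values were 4.66, 3.66 and 3.75 RPKM in control and 2.36, 2.15 and 2.63 RPKM in Dnmt1Δ/Δep libraries, without overlap. The log2 fold change of -0.76 ± 0.13 (SE, 95% interval -1.06 to -0.45, adjusted p = 0.013) was the most negative of the 9 genes. Without Dnmt1Δ/Δep replicate 1 the log2 fold change was -0.75 and the adjusted p 0.062. The table gives 1 count for all isoforms, so the epithelial form was not measured by itself. Of the exon bases of Dst, 3.63% are shared with genes on the other strand, and whether reads were counted by strand is not given in the sources used here. The same share was 7.66% for Itgb4 and 1.83% for Lama3, and Plec shared 1.13% with a gene on its own strand.

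Basal keratin genes moved in the same direction as Col17a1 and Dst. Krt5 had a log2 fold change of -0.50 ± 0.11 (SE, adjusted p = 0.038) and Krt14 of -0.61 ± 0.13 (adjusted p = 0.028), and Krt15, a keratin of basal and follicle stem cells, fell from 4.14 ± 2.94 to 0.327 ± 0.0469 RPKM (adjusted p = 0.019). Krt14 shares sequence with other keratin genes, so its counts are less certain. Trp63, the master transcription factor of the basal state, was at 37.5 ± 6.34 and 31.3 ± 4.42 RPKM with overlapping libraries (adjusted p = 0.38). The summed level of these 4 markers lay at 26100 to 29600 CPM for control against 18900 to 19500 CPM, and their part in the result was not tested. Relative to Krt5 in the same library, Col17a1 was at 0.0359 ± 0.00184 for control against 0.0346 ± 0.00383 (SD, n = 3), with overlapping libraries. Relative to Krt14, Col17a1 and Dst also overlapped between the groups, and so did Dst relative to Krt5. Within pairs of the same replicate number, Dst to Krt5 was lower in the Dnmt1Δ/Δep library each time (0.00056 and 0.000406, 0.000428 and 0.000376, 0.000497 and 0.000458). The other ratios of Col17a1 and Dst to these keratins went both ways between pairs. Itgb4 relative to Col17a1 was 0.445 ± 0.0562 for control against 0.745 ± 0.0777, without overlap. Each such ratio restates the changes of its single genes and adds no separate evidence. These ratios to keratins and to Col17a1 were chosen after the values were seen and are given without a test.

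**Figure D3:**
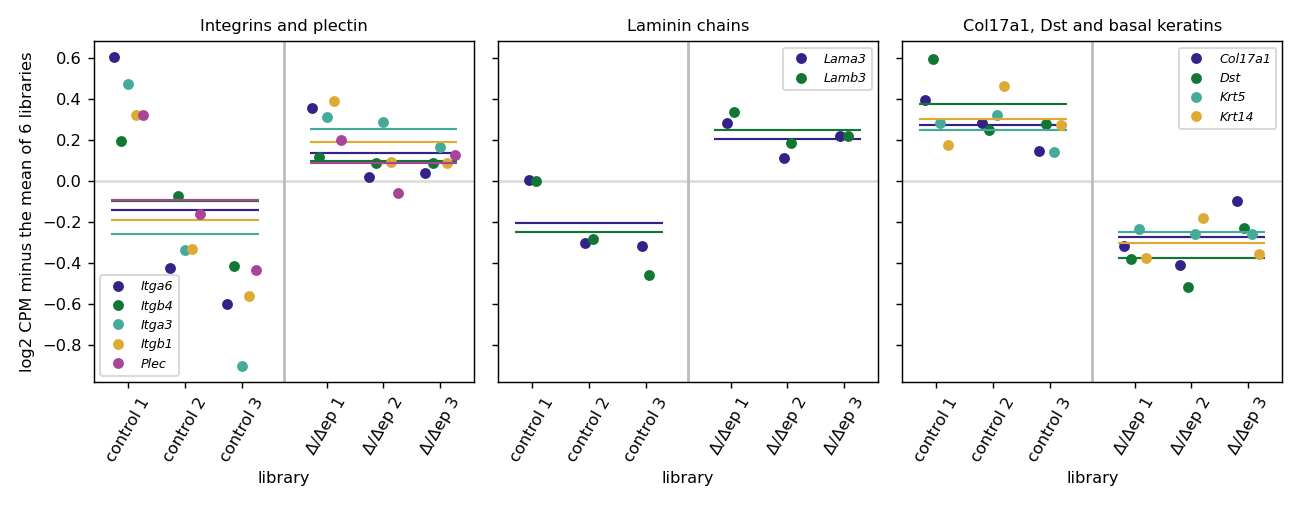
Level of each gene in each library, as log2 CPM minus its mean over the 6 libraries, with group means as lines; the panels hold integrins with Plec, Lama3 with Lamb3, and Col17a1 and Dst with basal keratin genes. Control replicate 1 has the highest control value of every gene in the first and second panels, and of Col17a1 and Dst in the third. All control values of Col17a1 and Dst are above all Dnmt1Δ/Δep values.

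The bases before the RefSeq starts of these genes are shown because DNMT1 acts on CpG sites, and because the genes that were lower differ in how many CpG sites they have there. No methylation was measured in these libraries. Entries were found for 5 of the 9 genes, with 8 windows of 250 bases (RefSeq, GRCm38.p6). CpG sites are in capitals, each sequence runs 5′ to 3′ on the strand of the gene, and bases inside annotated exons are left out of the printed sequences. Counts of CpG sites and of other letters cover all 250 bases of a window, with exon bases included. Col17a1 at chr19:47692095-47692292 (minus strand) and the second start of Dst at chr1:34160010-34160259 (plus strand) belong to the genes that were lower, and Lamb3 at chr1:193301744-193301992 (plus strand) and Itgb1 at chr8:128685404-128685653 (plus strand) are shown beside them.
Col17a1: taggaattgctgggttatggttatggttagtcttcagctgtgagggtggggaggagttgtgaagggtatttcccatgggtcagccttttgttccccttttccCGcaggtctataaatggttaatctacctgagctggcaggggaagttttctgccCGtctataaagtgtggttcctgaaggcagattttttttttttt
Dst second start: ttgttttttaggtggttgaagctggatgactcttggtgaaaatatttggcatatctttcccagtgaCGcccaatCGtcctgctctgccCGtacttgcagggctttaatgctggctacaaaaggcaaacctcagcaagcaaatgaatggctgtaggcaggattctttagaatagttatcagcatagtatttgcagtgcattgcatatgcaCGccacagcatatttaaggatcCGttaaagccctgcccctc
Lamb3 first start: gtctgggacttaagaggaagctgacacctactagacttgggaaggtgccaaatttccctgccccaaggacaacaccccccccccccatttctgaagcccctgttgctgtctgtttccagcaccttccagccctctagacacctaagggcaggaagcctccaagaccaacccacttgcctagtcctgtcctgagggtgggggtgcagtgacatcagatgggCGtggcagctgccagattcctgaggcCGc
Itgb1: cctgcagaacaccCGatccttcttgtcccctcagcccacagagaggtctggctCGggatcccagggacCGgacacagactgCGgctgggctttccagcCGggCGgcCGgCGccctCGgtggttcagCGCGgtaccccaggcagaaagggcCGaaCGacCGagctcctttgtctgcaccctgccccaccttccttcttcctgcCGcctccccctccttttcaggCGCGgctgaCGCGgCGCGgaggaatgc

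The window of Col17a1 holds 2 CpG sites, fewer than the median of 6 over 32851 RefSeq promoter windows of the same length. Dst has 22 CpG sites before its first start and 5 before the second, which lies near Dst-213. Lamb3 has 2 and 3 CpG sites before its 2 starts, Itgb1 has 21, and Itga3 has 5 and 22. Genes that were lower and genes that were not thus both had windows with few and with many CpG sites. The letters TATAAA occur 2 times before Col17a1 and in none of the other 7 windows, and 12.4% of all windows hold them on either strand. The GC box letters GGGCGG, held by 32.7% of all windows, contain a CpG themselves and occur 4 times before the first start of Dst, 3 times before the second start of Itga3 and 1 time each before Itgb1 and the first start of Itga3. The AP-1 letters TGANTCA, held by 6.75% of all windows, were found in none of the 8.

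**Figure D4:**
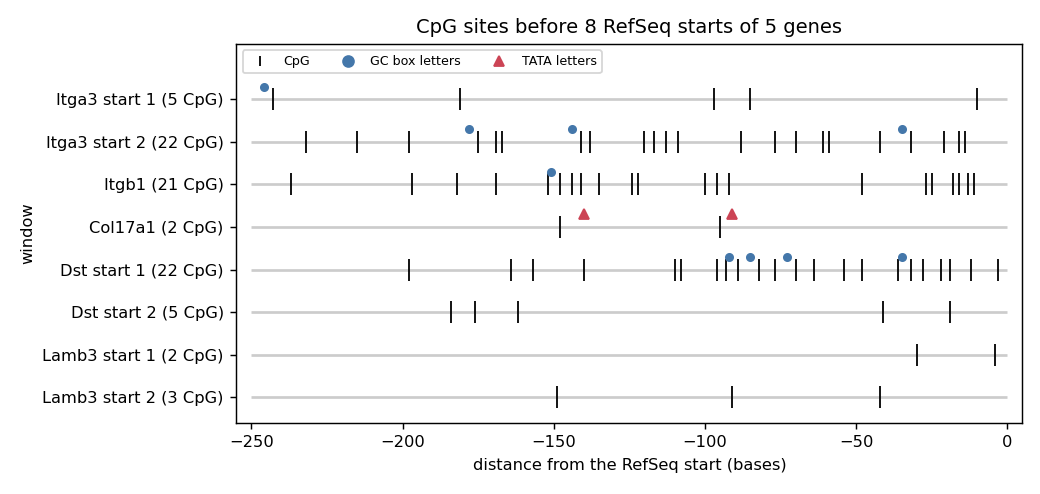
Position of CpG sites (black ticks), GC box letters (blue) and TATA letters (red) in the 250 bases before 8 RefSeq starts of 5 genes, as distance from the start in bases. Col17a1 and Lamb3 have 2 or 3 CpG sites per window, and Itgb1, the first start of Dst and the second start of Itga3 have 21 or 22.

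For the integrin genes no change passed the test, and the control libraries spread widely. Itgb4 (ENSMUSG00000020758, chr11:115974709-116008412, plus strand), the β chain that pairs only with α6, was at 158, 131 and 103 RPKM in control and at 149, 146 and 147 RPKM in Dnmt1Δ/Δep libraries. Its log2 fold change was 0.17 ± 0.16 (SE, 95% interval -0.19 to 0.54, adjusted p = 0.59). Its partner Itga6 (ENSMUSG00000027111, chr2:71745616-71858416, plus strand) was at 92.9, 45.6 and 40.2 RPKM in control and at 78.2, 61.9 and 62.7 RPKM in Dnmt1Δ/Δep libraries. For both genes the Dnmt1Δ/Δep values lay inside the range of the control values. The change of Itga6 was 0.18 ± 0.31 (95% interval -0.54 to 0.90, adjusted p = 0.81), an interval that reaches 1.87-fold higher.

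Itga3 (ENSMUSG00000001507, chr11:95044474-95076801, minus strand), the α chain of the focal adhesion receptor for laminin, was at 144, 82.1 and 55.4 RPKM in control and at 129, 127 and 117 RPKM in Dnmt1Δ/Δep libraries. Itgb1 (ENSMUSG00000025809, chr8:128685654-128733200, plus strand), the β chain that pairs with many α chains, was at 251, 160 and 137 RPKM in control and at 265, 216 and 214 RPKM in Dnmt1Δ/Δep libraries. Control replicate 1 stood apart from the other 2 control libraries for both genes, and the groups overlapped. Within pairs of the same replicate number, log2 differences were 0.08, 0.43 and 0.65 for Itgb1 and -0.16, 0.62 and 1.07 for Itga3. With the replicate block in edgeR neither passed (adjusted p = 0.11 for Itgb1 and 0.21 for Itga3). The log2 fold changes were 0.40 ± 0.31 for Itga3 (95% interval -0.32 to 1.13, adjusted p = 0.51) and 0.34 ± 0.23 for Itgb1 (95% interval -0.19 to 0.88, adjusted p = 0.44). Over the 3 control libraries the coefficient of variation was 48.7% for Itga6, 48.3% for Itga3 and 33.1% for Itgb1, against a median of 10.6% for genes of like abundance. Without control replicate 1, Itga6 (0.65, adjusted p = 0.027), Itga3 (0.85, adjusted p = 0.025) and Itgb1 (0.64, adjusted p = 0.029) passed the adjusted p as higher, and with both laminin chains 5 of the 9 genes did. In that fit 2334 of 17219 genes passed the adjusted p in either direction, against 1576 of 16829 with all libraries. Without control replicate 3, the log2 fold change of Itga6 was -0.04. These 4 genes held 85% to 91.3% of the summed RPKM of 26 integrin subunits in control and 88.2% to 89.4% in Dnmt1Δ/Δep libraries, and the next subunit, Itgav, was at 15.4 and 18 RPKM.

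Plec (ENSMUSG00000022565, chr15:76170974-76232574, minus strand) encodes plectin, the plakin that links integrin β4 to keratin. It was at 58.3, 41.9 and 34.6 RPKM in control and at 53.7, 45.0 and 51.1 RPKM in Dnmt1Δ/Δep libraries, with the second group inside the range of the first. Its log2 fold change was 0.15 ± 0.19 (SE, 95% interval -0.30 to 0.60, adjusted p = 0.72), and -0.01 without control replicate 3. The ratio of Plec to Dst, the other plakin of the inner plaque, took values of 12.5, 11.4 and 9.24 for control against 22.7, 20.9 and 19.4 for Dnmt1Δ/Δep libraries. The ratios did not overlap, with p = 0.1 in a two-sided exact permutation test, the smallest value that 3 against 3 libraries allow, and 0.5 after adjustment over the 5 ratios tested.

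The laminin chains were higher in every Dnmt1Δ/Δep library, by less than 2-fold, and did not pass the adjusted p. Lamb3 (ENSMUSG00000026639, chr1:193207699-193343878, plus strand), the β chain of the hemidesmosomal laminin, was at 44.3, 36.5 and 32.2 RPKM in control and at 56.0, 50.4 and 51.7 RPKM in Dnmt1Δ/Δep libraries. Lama3 (ENSMUSG00000024421, chromosome 18), its α chain, was at 50.9, 41.1 and 40.7 RPKM in control and at 61.7, 54.9 and 59.0 RPKM in Dnmt1Δ/Δep libraries. The log2 fold changes were 0.48 ± 0.13 for Lamb3 (SE, 95% interval 0.17 to 0.79, adjusted p = 0.066) and 0.40 ± 0.12 for Lama3 (95% interval 0.12 to 0.69, adjusted p = 0.084). With a block for the replicate number, which marks a shared sequencing lane, both passed the adjusted p, Lamb3 at 0.50 (adjusted p = 0.029) and Lama3 at 0.41 (adjusted p = 0.04). They also passed it without control replicate 1, at 0.62 (adjusted p = 0.013) and 0.52 (adjusted p = 0.017).

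Ratios between partner chains overlapped between the groups. Itgb4 to Itga6 was 2.38 ± 0.612 for control against 2.21 ± 0.262 for Dnmt1Δ/Δep libraries (SD, n = 3, exact permutation p = 0.8). Itgb1 to Itga3 was 2.06 ± 0.371 and 1.87 ± 0.18 (exact permutation p = 0.6), and Lamb3 to Lama3 was 0.85 ± 0.0511 and 0.9 ± 0.0219 (exact permutation p = 0.2). Within pairs of the same replicate number, Lamb3 to Lama3 was higher in the Dnmt1Δ/Δep library each time (0.871 and 0.908, 0.887 and 0.917, 0.792 and 0.876), whereas both integrin ratios were higher in 1 pair and lower in 2. The permutation tests did not use the pairing. The size of a ratio, but not the comparison between groups, depends on the gene lengths, since with the longest transcript control levels were 148 RPKM for Itgb4 and 125 RPKM for Itga6. With a smallest possible p of 0.1 none of these tests could pass 0.05.

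**Figure D5:**
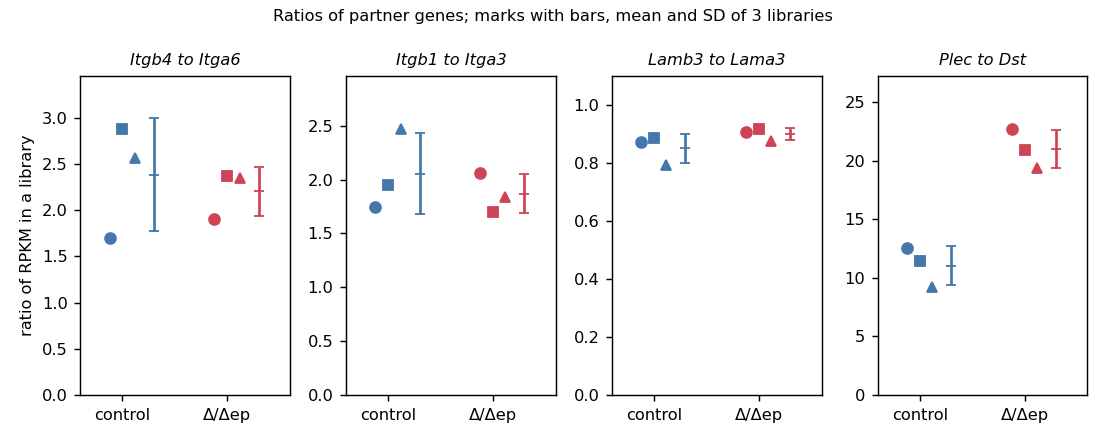
Ratio of the RPKM of partner genes within each library, from 0 upwards, for control (blue) and Dnmt1Δ/Δep (red); markers are libraries and the marks with bars are mean and SD of 3 libraries. Only the ratio of Plec to Dst has groups that do not overlap, at 9.24 to 12.5 in control and 19.4 to 22.7 in Dnmt1Δ/Δep libraries.

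Across the 6 libraries the 9 genes fell into 2 sets by the sign of their correlation, as a description over points that share group and library. The sets follow the direction of the group difference, which was negative for Col17a1 and Dst only. Of the 36 pairs, 22 had a positive Pearson r (11 above 0.9), among them Itgb4 with Itga3, Lama3 with Lamb3 and Col17a1 with Dst at 0.98 each. All 14 pairs of Col17a1 or Dst with the other 7 genes had a negative r, from -0.07 (Dst with Itga6) to -0.70 (Col17a1 with Lamb3). As deviations from the group means, the same 14 pairs had positive values, from 0.46 to 0.87, and the median over all 36 was 0.88. The mean of the centred log2 CPM of the 9 genes took values of 0.32, -0.15 and -0.36 for control against 0.14, -0.02 and 0.07 for Dnmt1Δ/Δep libraries. Control replicate 1 was thus highest and control replicate 3 lowest. The 5 other genes closest to this mean were Lipt2 (r = 0.993), Hacd1 (0.992), C730034F03Rik (0.991), 2410002F23Rik (0.989) and Rbmx (0.989), and 368 genes had an r above 0.9.

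Around the hemidesmosome, other matrix and adhesion genes were read from lists of the same pathway. Of 29 further laminin and basement membrane genes, 4 were called higher and 1 lower (6.03% and 0.392% of all genes tested), with a median log2 fold change of 0.32. Nidogen 1 (Nid1), which bridges laminin and collagen IV, rose from 4.31 ± 1.96 to 13.9 ± 3.32 RPKM (SD, n = 3, adjusted p = 0.022) and fibronectin (Fn1) from 4.5 ± 1.19 to 9.68 ± 2.03 RPKM (adjusted p = 0.025). Lama1 (1.70, adjusted p = 0.014) and Nid2 (1.52, adjusted p = 0.043) rose from levels under 0.1 RPKM, and Nid2 was named after its value was seen. Fras1, which encodes a basement membrane protein of developing skin, fell from 3.15 ± 0.792 to 1.4 ± 0.236 RPKM (adjusted p = 0.015). Col18a1, an abundant gene of the list, was at 98.6 ± 15.5 against 120 ± 9.22 RPKM (adjusted p = 0.27). Without control replicate 2 none of the 29 was called.

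Of the other 22 integrin subunits, 19 were tested and 4 were called higher (6.03% of all genes tested), all of them subunits known from leukocytes and all low. Itgb7 rose from 0.612 ± 0.126 to 1.98 ± 0.859 RPKM (adjusted p = 0.024), and Itgb2 (1.58, adjusted p = 0.028) and Itgam (2.35, adjusted p = 0.047) were under 0.3 RPKM in both groups. Itgal had at most 1 count in each control library and was at least 9.64-fold higher (against a floor of 3 counts per library). Of the exon bases of Itgam, 68.7% are shared with another gene. The most abundant of these subunits by the mean over all libraries, Itgav (0.22, adjusted p = 0.43) and Itgb6 (0.39, adjusted p = 0.19), did not pass. In control alone, Itgb5 (14.1 RPKM) was above Itgb6 (13.1 RPKM). Without control replicate 2, Dnmt1Δ/Δep replicate 1 or Dnmt1Δ/Δep replicate 2, 1 subunit was called higher. Itgam is also one of the leukocyte markers given above, so these lists are not independent. Their part in the result was not tested. Of 33 integrin adaptor and focal adhesion genes, 0 were called with edgeR (6.42% of all genes tested) and 1 with DESeq2. An unadjusted p under 0.05 was found for 7 of them, and for 23.6% of all genes tested. At the adjusted p alone 2 of the 33 were higher, where 7.71% of all genes tested were. Syndecan 1 (Sdc1), a laminin-binding proteoglycan, was at 274 ± 3.97 against 367 ± 15.1 RPKM (adjusted p = 0.032). The other was the kinase gene Src (0.43, adjusted p = 0.045), which was named after its value was seen. Actn1, with Sdc1 the most abundant of the list, had a log2 fold change of 0.28 ± 0.15 (SE, adjusted p = 0.31).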

How the data were processed

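Poly(A)-selected RNA of cultured keratinocytes was sequenced from 3 control and 3 Dnmt1Δ/Δep mice, which were grouped by their labels. According to the methods and processing notes, the authors trimmed reads with cutadapt, aligned them with STAR and counted them on genes with HTSeq, and the notes name GRCm38. The deposited table holds raw counts, all of them whole. Rows that name no gene held 8.73% to 12.9% of the counts and were left out. Tables of the authors' own comparisons hold fold changes and p-values and were not used, nor was the repeat table.

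Genes were tested with edgeR 4.0.16 (quasi-likelihood test, TMM, filterByExpr with minimum counts of 10 and 15) over 16829 genes, with Benjamini-Hochberg adjustment and calls at an adjusted p of 0.05 with a log2 fold change of 1, or at the adjusted p alone. Standard errors were obtained by dividing each change by the root of its F statistic. CPM use the TMM-scaled library size, and RPKM divide them by the union of exons in GENCODE M21 (GRCm38), which gave symbols for 97.5% of identifiers. Ratios were compared with two-sided exact permutation tests. The calls were tested on simulated data. Alternatives were RLE and upper-quartile scaling, no filter, a mean RPKM of at least 1, DESeq2 1.42.0, a replicate block, each library left out, and other gene lengths. R 4.3.3 and Python 3.11.15 were used.

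Replicates of the same number share a lane according to the table's header. Their deviations from the group means correlated across genes (r = 0.46, 0.36 and 0.30 for replicates 1, 2 and 3). Libraries of unlike number had an r from -0.45 to 0.12. The numbers thus pair the libraries by lane, and whether the pairs share more than the lane was not tested. The methods use no block, and the fit with it is an alternative. The genes and all lists were chosen with earlier results of these data known. For each other list, called genes (up to 4, by smallest p) and the 2 with the highest level were named, and the 5 genes most like the mean of the 9. A further gene that this rule names, and 1 of the 5 ratios, are not reported here. Intervals of fold changes include the spread between libraries, and floors of 3 counts cover counting error only.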

Additional observations from a re-analysis of the deposited data

How the results depend on the processing

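The number of the 9 genes called with a 2-fold change was 0 under every alternative run. At the adjusted p alone, 0 were higher and 2 lower. With the replicate block 2 were higher, and leaving out 1 library gave 0 to 5 higher (5 without control replicate 1) and 0 to 2 lower (0 without Dnmt1Δ/Δep replicate 1). Over all genes the adjusted p was passed by 1576 of 16829, by 2289 with the block and by 639 to 2334 with 1 library left out. Itga6 ranged from -0.04 to 0.65 and Plec from -0.01 to 0.38 with 1 library left out, below 0 without control replicate 3. Laminin and basement membrane genes called higher numbered 2 with a mean RPKM of at least 1, and 0 to 5 with 1 library left out (0 lacking control replicate 2, 2 lacking control replicate 3, 1 lacking either Dnmt1Δ/Δep replicate 1 or replicate 3), and genes called lower 0 to 2. Other integrin subunits called higher numbered 1 with that minimum, and 1 to 3 with 1 library left out (2 lacking control replicate 3). Called lower were 1 with DESeq2 and 0 to 1 with 1 library left out. Adaptor genes called higher numbered 1 without the low-count filter and with DESeq2, and 0 to 1 in each direction with 1 library left out. Desmosome genes called lower numbered 0 to 1 with 1 library left out. The replicate block changed no other call of the 9 genes. With the longest transcript as length, control levels were 125 RPKM for Itga6, 51.2 for Lamb3 and 7.11 for Dst. The intervals of the integrin genes include both no change and rises of up to 1.87-fold for Itga6 and 2.18-fold for Itga3. The causes of these differences were not tested.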

Other observations

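Cell-cell adhesion was read from a list of 16 plakin and desmosome genes, the junctions that hold keratinocytes to each other and share keratin filaments with hemidesmosomes. Desmocollin 2 (Dsc2) rose from 17.3 ± 3.63 to 40.2 ± 5.96 RPKM (SD, n = 3, log2 fold change 1.21 ± 0.18 SE, adjusted p = 0.0075 in edgeR's quasi-likelihood test) and was the only gene of the list called with a 2-fold change, where 6.03% of all genes tested were called higher. The most abundant members, Perp (1790 ± 469 against 1410 ± 54.1 RPKM, adjusted p = 0.35) and Dsp (526 ± 89.2 against 462 ± 20.1 RPKM, adjusted p = 0.51), overlapped between the groups. The median log2 fold change of the list was -0.20, with 10 of 16 negative, beside 0 for all genes tested.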
